A study of Mus musculus with 96 samples.

Results

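Glycogen is the storage form of glucose, and the 8 genes described here encode proteins that build it, break it down or set the balance between both. They are the rows of the deposited tables with the symbols Ppp1r3c, Ppp1r3d, Ppp1r3g, Pygb, Pygm, Gys1, Gbe1 and Ugp2, so 8 of 24060 gene entries, and all 8 were found in each table. RNA was measured in the striatum of 48 adult mice, in 6 experiments of 8 mice, 4 of them treated and 4 controls. An adeno-associated virus (AAV) had made striatal astrocytes carry an HA-tagged ribosomal protein, Rpl22-HA, for 3 weeks. Antibodies against HA then pulled down astrocyte ribosomes with their bound RNA (IP), and RNA of the cleared lysate of the same tissue gave the input library, so that 96 libraries were made.

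All 48 mice carried the Rpl22-HA virus, controls included. In the QA experiment C57BL/6 mice received quinolinic acid (QA, 30 nM in the labels), an excitotoxin, in the striatum 2 weeks before collection, or vehicle. In the LPS experiment C57BL/6 mice received lipopolysaccharide (LPS), a bacterial endotoxin, at 5 mg/kg into the peritoneum 24 h before collection, or vehicle. In the Kcnj10 experiment Kir4.1flox/flox mice, whose floxed gene encodes the potassium channel Kir4.1, received AAV5-GfaABC1D-Cre or, as controls, AAV5-GfaABC1D-TdTomato; GfaABC1D is an astrocyte promoter. The Itpr2 experiment set Itpr2-/- mice, labelled as lacking the calcium release channel IP3R2, against Itpr2+/+ littermates. In the last pair of experiments all mice, vehicle mice included, expressed a designer receptor in striatal astrocytes, rM3Ds (coupled to Gs) or hM3Dq (coupled to Gq). Its ligand clozapine N-oxide (CNO) was given at 1 mg/kg into the peritoneum, 2 h before collection for rM3Ds and at a time not given in the labels for hM3Dq, and the controls received vehicle. No mice without a receptor received CNO. The questions asked were how astrocytes change after loss of medium spiny neurons, in inflammation, with less potassium current and with altered calcium or receptor signalling.

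Astrocytes hold most of the glycogen of the brain. UDP-glucose pyrophosphorylase (Ugp2) makes the activated glucose, glycogen synthase (Gys1) adds it to the growing chain, and the branching enzyme (Gbe1) makes the branches. Glycogen phosphorylase, as its brain (Pygb) and muscle (Pygm) isoforms, releases glucose phosphate again. Ppp1r3c (PTG, protein targeting to glycogen), Ppp1r3d and Ppp1r3g encode subunits that bring protein phosphatase 1 to glycogen, where dephosphorylation turns the synthase on and the phosphorylase off. In cultured mouse astrocytes noradrenaline and vasoactive intestinal peptide are known to induce PTG mRNA.

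The promoters of the targeting subunits are shown because Ppp1r3c and Ppp1r3g had the largest changes in IP of the 8 members; that of Ppp1r3d, the third, is shown beside them. Each line gives 250 bases before and 50 after a RefSeq start site, 5′ to 3′ on the strand of the gene (GRCm38.p6, the mm10 assembly). Capitals mark the E-box CACGTG and TGACG, the core of the cAMP response element on either strand (CGTCA where it lies on the other strand). The window of Ppp1r3c is chr19:36736555-36736854 (minus strand), that of Ppp1r3g chr13:35967656-35967955 (plus strand), around a start site inside the annotated span of the gene, and that of Ppp1r3d chr2:178414414-178414713 (minus strand).
Ppp1r3c: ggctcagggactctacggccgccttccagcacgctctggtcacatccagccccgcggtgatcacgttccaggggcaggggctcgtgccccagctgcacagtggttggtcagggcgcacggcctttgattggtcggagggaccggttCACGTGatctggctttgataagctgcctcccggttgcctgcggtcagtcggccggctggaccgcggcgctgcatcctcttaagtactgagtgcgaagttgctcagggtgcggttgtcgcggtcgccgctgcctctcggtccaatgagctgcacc
Ppp1r3g: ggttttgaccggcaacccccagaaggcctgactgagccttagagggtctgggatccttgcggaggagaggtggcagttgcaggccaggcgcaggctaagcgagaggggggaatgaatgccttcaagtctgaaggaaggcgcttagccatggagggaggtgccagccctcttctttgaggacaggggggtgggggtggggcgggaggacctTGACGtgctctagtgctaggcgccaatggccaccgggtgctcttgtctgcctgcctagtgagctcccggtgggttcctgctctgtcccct
Ppp1r3d: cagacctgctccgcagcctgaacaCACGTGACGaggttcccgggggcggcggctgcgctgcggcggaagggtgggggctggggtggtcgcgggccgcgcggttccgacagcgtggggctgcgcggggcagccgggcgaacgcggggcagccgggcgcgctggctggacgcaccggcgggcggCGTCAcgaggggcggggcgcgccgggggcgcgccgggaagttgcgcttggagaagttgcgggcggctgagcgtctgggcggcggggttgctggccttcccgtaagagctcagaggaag
Ppp1r3c had an E-box starting 104 bases before the start site and no TGACG. Ppp1r3g had a TGACG at -40. Ppp1r3d had TGACG at -222 and -68 and an E-box at -226 that overlaps the first of them. Of the enzymes Pygb had a TGACG at -132. The full cAMP response element TGACGTCA and the AP-1 motif TGACTCA were in the window of 0 of 8 members. Among 32851 windows of 27025 mouse genes, searched on both strands, 1.79% held TGACGTCA, 20.8% TGACG, 5.2% TGACTCA and 7.15% CACGTG. A match describes letters in the window and nothing about a bound factor.

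In the RefSeq annotation of GRCm38.p6, Ppp1r3c lies on chromosome 19 from 36731731 to 36736604 (minus strand) and Pygm on the same chromosome from 6384408 to 6398464 (plus strand). Pygb lies on chromosome 2 from 150786796 to 150831748 (plus strand) and Gbe1 on chromosome 16 from 70313949 to 70569720 (plus strand). No other annotated gene overlaps these 4. Ppp1r3d, on chromosome 2 from 178411206 to 178414463 (minus strand), shares 760 bases with Fam217b on the opposite strand. Gys1, on chromosome 7 from 45434839 to 45456617 (plus strand), shares 1333 bases with Ruvbl2 on the opposite strand. Ppp1r3g, on chromosome 13 from 35958824 to 35970388 (plus strand), contains 5182 bases of the antisense RNA gene Gm30127, and Ugp2, on chromosome 11 from 21321126 to 21371267 (minus strand), shares 8 bases with Vps54 and contains the microRNA gene Mir1933. The library kit was stranded, but whether counting used the strand is not given in the sources used here, so reads of such pairs may not be told apart.

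Values are FPKM (reads scaled to gene length and library total), given as mean ± SD of 4 mice unless another n is stated. The IP libraries held 42482787 to 82256165 counted reads and the input libraries 14738821 to 51033642. A change is the log2 ratio of treated to control mice ± SE after TMM scaling, which corrects for composition. Changes can therefore differ from the ratio of the printed FPKM. For Gbe1 in LPS IP, for example, the change was 0.34 with TMM and 0.20 with the deposited scaling. A gene was called, and said to rise or fall, at a limma p under 0.05 after Benjamini-Hochberg adjustment over all genes tested. All 8 members passed the filter on low values in each comparison. Where groups are said not to overlap, this describes the FPKM of their mice. The share of all genes without overlap is not given here, so a lack of overlap cannot be called particular to these members. In control mice the 15 astrocyte markers summed to 5370 to 9540 FPKM in IP and 1087 to 1278 in input. The 10 medium spiny neuron markers summed to 1075 to 2330 in IP and 3346 to 4548 in input. However, 7 striatal interneuron markers were higher in IP (871.1 to 1666) than in input (277.8 to 494.5). So were 6 ependymal markers (59.19 to 164.3 in IP, 21.97 to 40.35 in input). The 8 oligodendrocyte markers overlapped (557.9 to 1857 in IP, 1316 to 1868 in input). Microglia, leukocyte and endothelium markers were lower in IP. What these cells add to IP levels of the glycogen genes was not tested. Cre lowered Kcnj10 itself to 31.4 ± 3.45 FPKM in IP, against 150 ± 10.1 FPKM with TdTomato. Itpr2 stood at 11.9 ± 1.82 FPKM in IP of mice labelled Itpr2-/-, against 11.4 ± 1.77 FPKM in Itpr2+/+ littermates. The transcript level therefore does not check that label, and which part of the gene was deleted is not given in the sources used here.

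In control mice all 8 glycogen genes were more abundant in IP than in input. The log2 difference lay between 2.04 and 2.38 for both phosphorylases and for the targeting subunits Ppp1r3c and Ppp1r3g, and was smallest for Ppp1r3d. Per gene length Pygb was the most abundant of the 8 in both fractions, and Ppp1r3d was the lowest in IP. Ppp1r3d and Ppp1r3g were the lowest in input, where Ppp1r3d was the higher in 15 of 24 mice.

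Pygb stood at 205 ± 40.5 FPKM in IP and 45.9 ± 5.53 FPKM in input of the 24 control mice, and Pygm at 33.2 ± 12.1 FPKM in IP and 7.08 ± 1.92 FPKM in input. Their log2 differences of IP over input were 2.36 ± 0.05 and 2.38 ± 0.06 in a fit with the mouse as a block. These differences were of similar size, although Pygb was the far more abundant isoform. The subunits Ppp1r3c, with 109 ± 16.9 FPKM in IP and 30.4 ± 3.39 FPKM in input, and Ppp1r3g, with 15.2 ± 5.26 FPKM in IP and 3.42 ± 0.618 FPKM in input, differed by 2.04 ± 0.05 and 2.28 ± 0.06. Ppp1r3d, with 4.51 ± 0.948 FPKM in IP and 3.60 ± 0.427 FPKM in input, differed by 0.50 ± 0.06 and by 0.29 with the deposited scaling, that is without TMM. It was higher in IP than in input in 20 of 24 mice by FPKM, where each of the other members was higher in 24 of 24. In the Kcnj10 controls alone its difference was 0.09 (limma adjusted p = 0.425), and in the other 5 experiments it lay between 0.35 and 0.80 and was called.

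Among the enzymes of synthesis, Ugp2 stood at 92.0 ± 8.34 FPKM in IP and 33.0 ± 4.05 FPKM in input, a log2 difference of 1.70 ± 0.04. Gys1, with 11.3 ± 2.22 FPKM in IP and 4.70 ± 0.478 FPKM in input, differed by 1.44 ± 0.05. Gbe1, with 14.4 ± 4.10 FPKM in IP and 8.29 ± 1.10 FPKM in input, differed by 0.98 ± 0.04. All 8 members were called higher in IP, with limma adjusted p between 4.77e-26 (Pygb) and 9.65e-09 (Ppp1r3d). Of 15566 genes tested, 42.9% were called higher in IP and 88.7% in either direction. Fewer cells of a type and less RNA per cell cannot be told apart in such bulk libraries.

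The order of the levels in IP was Pygb, Ppp1r3c, Ugp2, Pygm, Ppp1r3g, Gbe1, Gys1 and Ppp1r3d. It held in 24 of 24 mice for most neighbours and in 23 of 24 for Ppp1r3c over Ugp2. Ppp1r3g was above Gbe1 in 15 of 24 mice only, and Gbe1 above Gys1 in 19 of 24, so these 3 did not separate. Ugp2 varied least between the control groups, whose highest mean was 1.20 times the lowest, and Ppp1r3g and Pygm varied most, by 2.61 and 2.59 times. In 4 cases the control mice of 1 experiment lay wholly outside the other 20. The share of all genes with such a gap was not counted, so it cannot be called particular to these members. Gbe1 stood at 21.8 to 25.0 FPKM in IP of the TdTomato mice and 10.98 to 14.4 in the other controls, and Ppp1r3d at 2.74 to 3.29 in the TdTomato mice and 3.68 to 6.41 in the other controls. Ppp1r3g stood at 21.7 to 28.8 FPKM in IP of hM3Dq vehicle mice and 7.62 to 21.5 in the other controls, and Gys1 at 14.5 to 16.9 in hM3Dq vehicle mice and 8.81 to 12.8 in the other controls. The astrocyte markers stood apart there too, with sums in IP of 8981 to 9540 FPKM against 5370 to 7381 FPKM in the other controls. In the hM3Dq controls alone the log2 difference of IP over input was 2.84 for Ppp1r3g and 1.88 for Gys1. In the controls of each other experiment it was 2.07 to 2.43 and 1.21 to 1.49. What this adds to the levels of both genes was not tested. Levels are therefore compared within experiments below.

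**Figure D1:**
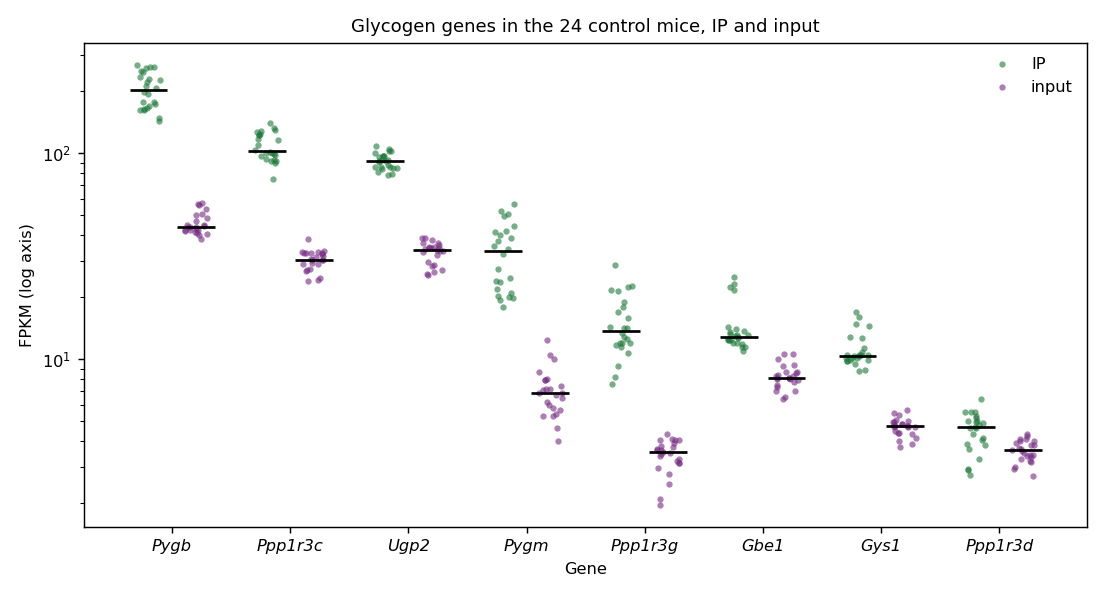
FPKM on a log axis (y) of the 8 glycogen genes (x) in IP (green, left) and input (purple, right) of the 24 control mice, 1 point per mouse, with the median as a bar. Pygb has the highest level, the IP and input points of Ppp1r3d overlap, and 4 IP points of Gbe1 at 21.8 to 25.0 FPKM stand above the rest.

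Of 30 further glycogen genes, listed from textbook roles, 25 were tested in the same comparison, of which 15 were higher in IP and 8 lower. The phosphorylase kinase subunits Phka1 (log2 difference 2.36) and Phkg1 (2.20) had differences close to those of the phosphorylases. The liver phosphorylase Pygl (1.77) was higher as well. The catalytic phosphatase subunits Ppp1ca (-1.12), Ppp1cc (-1.002) and, by less, Ppp1cb (-0.20) were lower in IP. Ppp1cc varied widely between the 24 control mice, at 10.83 ± 10.85 FPKM in IP and 23.83 ± 23.03 FPKM in input. The muscle and liver targeting subunits Ppp1r3a and Ppp1r3b averaged 0.0117 and 0.113 FPKM in IP and, like the liver synthase Gys2 (0.217 FPKM) and Stbd1, did not pass the filter.

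After QA the members did not move in 1 direction in IP. The subunit Ppp1r3c and the enzymes Gys1, Pygb, Ugp2 and Gbe1 rose, while the subunits Ppp1r3d and Ppp1r3g and the phosphorylase Pygm fell. All 8 were called, 5 higher and 3 lower, in an experiment in which 74% of all genes were called in IP, 35.5% higher and 38.5% lower.

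Ppp1r3c had 150.9, 149.3, 174.6 and 161.4 FPKM in IP of QA mice, against 96.7, 104.3, 101.1 and 100.1 FPKM in vehicle mice, a change of 0.62 ± 0.07 (limma adjusted p = 2.19e-05). Ppp1r3g had 9.39, 8.48, 9.11 and 8.16 FPKM in QA mice, against 12.07, 12.53, 12.91 and 11.74 FPKM in vehicle mice, a change of -0.52 ± 0.06 (limma adjusted p = 3.32e-05). All QA mice were above all vehicle mice for Ppp1r3c and below them for Ppp1r3g. The third subunit, Ppp1r3d, averaged 2.83 ± 0.279 FPKM in QA mice and 4.05 ± 0.423 FPKM in vehicle mice (-0.54 ± 0.09, limma adjusted p = 5.83e-04), again without overlap. Fam217b, which overlaps Ppp1r3d on the opposite strand, changed by -0.50 ± 0.08 in the same libraries.

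Gys1 had 17.7, 16.3, 14.2 and 14.2 FPKM in IP of QA mice, against 10.2, 10.5, 10.4 and 10.2 FPKM in vehicle mice, a change of 0.55 ± 0.07 (limma adjusted p = 4.95e-05). The synthase thus lay above its narrow control range in each QA mouse. Ugp2 averaged 110 ± 4.77 FPKM in QA mice and 89.9 ± 5.49 FPKM in vehicle mice, a change of 0.26 ± 0.06, and Gbe1 15.3 ± 1.17 FPKM in QA mice and 12.7 ± 0.709 FPKM in vehicle mice, a change of 0.23 ± 0.07. Pygb averaged 214 ± 13.2 FPKM in QA mice and 166 ± 4.62 FPKM in vehicle mice, a change of 0.33 ± 0.06. Pygm averaged 20.9 ± 0.890 FPKM in QA mice and 22.7 ± 1.42 FPKM in vehicle mice, a change of -0.15 ± 0.05 with overlapping groups. Read from sex-linked genes, the QA mice were 1 female and 3 males and the vehicle mice 4 females. With sex as a covariate the change was 0.22 for Pygb and -0.11 for Pygm, and neither was called. As no vehicle mouse was male, that fit rests on the 1 QA female against the 4 vehicle females. It therefore cannot tell sex and QA apart for any member. The call of Pygm was also lost without vehicle replicate 1 or 2 or QA replicate 3 or 4, with limma adjusted p between 0.0598 and 0.0835, with the deposited scaling (limma adjusted p = 0.0936) and with the spread of all 48 IP libraries (limma adjusted p = 0.32).

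In QA input 4 of 8 members were called, all higher, where 73.2% of all genes were called and 34.8% were higher. Ppp1r3c averaged 65.2 ± 7.52 FPKM in QA mice and 32.3 ± 1.28 FPKM in vehicle mice, a change of 0.88 ± 0.07. Pygb averaged 74.3 ± 4.93 FPKM in QA mice and 42.3 ± 0.568 FPKM in vehicle mice, a change of 0.68 ± 0.04. The other two were Gys1 (0.48 ± 0.06) and Ugp2 (0.38 ± 0.04). Ppp1r3d was called too with the deposited scaling (0.27, limma adjusted p = 0.0112). Pygm was not called, except without QA replicate 1 (-0.28, limma adjusted p = 0.00781). The effect in IP minus that in input was itself called for 5 of 8 members, against 46.9% of all genes. It was 0.40 ± 0.07 for Gbe1, and below 0 for Ppp1r3d (-0.63 ± 0.12), Ppp1r3g (-0.43 ± 0.11), Pygb (-0.30 ± 0.05) and Ppp1r3c (-0.20 ± 0.04). Without the mouse as a block that of Ppp1r3c was not called (limma adjusted p = 0.127). With the deposited scaling it was -0.35 for Ppp1r3c and 0.26 for Gbe1, and Ugp2 was called too (-0.21, limma adjusted p = 0.0164).

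Markers of cell types moved widely after QA. All 10 medium spiny neuron markers fell in IP, with summed levels of 348.8 to 522.3 FPKM in QA mice against 2220 to 2330 FPKM in vehicle mice. Of 15 astrocyte markers 9 rose and 4 fell in IP (sums of 8925 to 10740 FPKM in QA mice, 6008 to 6568 FPKM in vehicle mice), and in input their sums were 2555 to 3196 FPKM in QA mice against 1241 to 1278 FPKM in vehicle mice. All 8 oligodendrocyte markers (3375 to 4727 FPKM in QA mice, 1648 to 1857 FPKM in vehicle mice) and all 9 microglia markers (74.5 to 120 FPKM in QA mice, 31.8 to 37.5 FPKM in vehicle mice) rose in IP. Sums of 7 striatal interneuron markers in IP were 396.5 to 503.7 FPKM in QA mice against 1122 to 1272 FPKM in vehicle mice. Those of 6 ependymal markers were 185.3 to 239.8 FPKM in QA mice against 77.2 to 105.7 FPKM in vehicle mice. In input the microglia markers summed to 4350 to 6323 FPKM in QA mice against 791.9 to 932.5 FPKM in vehicle mice. No marker of these lists was at 0. Their part in the changes of the glycogen genes was not tested.

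Among the other glycogen genes 11 rose and 12 fell in IP after QA, of 25 tested. Pgm1, of the phosphoglucomutase family that links glucose phosphates, averaged 14.2 ± 0.630 FPKM in QA mice and 6.16 ± 0.276 FPKM in vehicle mice (1.15 ± 0.06). The related Pgm2l1 averaged 10.9 ± 5.12 FPKM in QA mice and 26.3 ± 0.656 FPKM in vehicle mice (-1.42 ± 0.28). The catalytic phosphatase subunit Ppp1ca averaged 90.9 ± 5.84 FPKM in QA mice and 170 ± 5.17 FPKM in vehicle mice (-0.94 ± 0.05).

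LPS lowered 2 of the 3 targeting subunits and 2 enzymes in IP. Ppp1r3g and Ppp1r3c fell most, Ugp2 and Pygb fell less, and Gbe1 rose. These 5 of 8 members were called, where 36.9% of all genes were called in IP. Gys1 was low in 3 of 4 LPS mice and was not called.

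Ppp1r3g had 4.03, 7.20, 3.96 and 4.28 FPKM in IP of LPS mice, against 18.0, 21.5, 15.9 and 14.3 FPKM in vehicle mice, a change of -1.71 ± 0.17 (limma adjusted p = 7.78e-04). Ppp1r3c had 17.7, 78.1, 26.7 and 35.7 FPKM in LPS mice, against 90.31, 98.41, 91.95 and 94.34 FPKM in vehicle mice, a change of -1.32 ± 0.34 (limma adjusted p = 0.0198). The groups did not overlap for either subunit, and LPS replicate 2 was nearest to the vehicle mice in both. Gys1 had 4.40, 12.8, 6.18 and 4.39 FPKM in LPS mice, against 10.4, 11.3, 10.5 and 9.90 FPKM in vehicle mice, a change of -0.60 ± 0.27 (limma adjusted p = 0.106). The same replicate 2 was the highest of the 8 mice for Gys1, and the other 3 LPS mice lay below all vehicle mice.

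Without LPS replicate 2 Gys1 was called (-0.89, limma adjusted p = 3.54e-04), as it was with all mice and the spread of all 48 IP libraries (-0.61, limma adjusted p = 4.16e-04), and Ppp1r3c and Ppp1r3g changed by -1.67 and -1.86. Without vehicle replicate 2, vehicle replicate 3 or LPS replicate 3 the call of Ppp1r3c was lost, at limma adjusted p between 0.0508 and 0.06. Without vehicle replicate 1, vehicle replicate 3 or LPS replicate 3 that of Pygb was lost, at 0.0536 to 0.0547 by the same limma test, and with the replicate number as a block at 0.0557.

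Ugp2 had 42.7, 52.1, 49.1 and 53.6 FPKM in IP of LPS mice, against 79.2, 85.5, 91.7 and 81.6 FPKM in vehicle mice, a change of -0.63 ± 0.08 (limma adjusted p = 0.0016). Pygb averaged 186 ± 17.8 FPKM in LPS mice and 256 ± 18.4 FPKM in vehicle mice, a change of -0.32 ± 0.08. Neither gene overlapped between the groups. Gbe1 averaged 13.4 ± 0.573 FPKM in LPS mice and 11.6 ± 0.687 FPKM in vehicle mice, a change of 0.34 ± 0.07. With the deposited scaling, under which the median of all genes was -0.16, the change of Gbe1 was 0.20 (limma adjusted p = 0.0418). Pygm (0.20 ± 0.09, limma adjusted p = 0.106) and Ppp1r3d (-0.06 ± 0.09, limma adjusted p = 0.635) were not called.

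Input gave a similar list, with 4 of 8 members lower where 31.3% of all genes were called and 16% were lower. Ppp1r3g averaged 1.11 ± 0.358 FPKM in LPS mice and 3.73 ± 0.299 FPKM in vehicle mice, a change of -1.65 ± 0.17. Ppp1r3c averaged 12.8 ± 6.48 FPKM in LPS mice and 25.1 ± 1.47 FPKM in vehicle mice, a change of -1.05 ± 0.28, and its call was lost on leaving out any mouse other than LPS replicates 1 and 2 (limma adjusted p 0.0513 to 0.0742). The remaining 2 were Pygb (-0.38 ± 0.07) and Ugp2 (-0.37 ± 0.07). Gys1 had 1.87, 5.30, 2.11 and 1.60 FPKM in LPS mice, against 4.37, 5.09, 4.15 and 4.97 FPKM in vehicle mice (-0.86 ± 0.30, limma adjusted p = 0.0557), with replicate 2 high again. It was called with voom (limma adjusted p = 0.0399), a replicate block (0.0482) and the spread of all 48 input libraries (1.58e-05). Without replicate 2 the change was -1.20 (limma adjusted p = 5.63e-05). Gbe1 was then also called (0.21, limma adjusted p = 0.0309). Ugp2 alone fell more in IP than in input (-0.27 ± 0.06, limma adjusted p = 0.0325), where 8.43% of all genes were called, and that call was lost on leaving out any mouse other than LPS replicate 2 (limma adjusted p 0.05 to 0.101), and without the mouse block (limma adjusted p = 0.22). The difference was also called for Ppp1r3c without LPS replicate 2 (-0.39, limma adjusted p = 0.00133) or with the deposited scaling (-0.37, limma adjusted p = 0.0486), and for Ppp1r3g with a pseudocount of 1 (-0.47, limma adjusted p = 0.0216).

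Of the astrocyte markers 6 of 15 rose in IP after LPS and 0 fell, with sums of 7735 to 8158 FPKM in LPS mice against 6736 to 7381 FPKM in vehicle mice. Of 8 oligodendrocyte markers 5 rose (1260 to 2048 FPKM in LPS mice, 905 to 1523 FPKM in vehicle mice), and 5 of 10 medium spiny neuron markers fell (1114 to 1562 FPKM in LPS mice, 1403 to 1741 FPKM in vehicle mice). No listed marker of these types was at 0, and their part in the result was not tested. Among the other glycogen genes 5 rose and 5 fell, of 24 tested. Hexokinase 2 (Hk2), which traps glucose as its phosphate, averaged 5.03 ± 2.05 FPKM in LPS mice and 0.771 ± 0.210 FPKM in vehicle mice (2.59 ± 0.39). Pgm1 (0.69 ± 0.20) and the phosphorylase kinase subunit Phkg2 (0.44 ± 0.09) rose as well.

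With Cre in Kir4.1flox/flox mice Gbe1 had the largest change of the 8 in IP. It fell, as did Pygm, while the subunits Ppp1r3d and Ppp1r3g and the synthase Gys1 rose. Thus 5 of 8 members were called, where 29.3% of all genes were called in IP.

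Gbe1 had 12.24, 12.53, 13.60 and 12.55 FPKM in IP of Cre mice, against 23.3, 21.8, 25.0 and 22.5 FPKM in TdTomato mice, a change of -0.82 ± 0.05 (limma adjusted p = 4.18e-06). The groups were far apart, and it was the TdTomato mice that differed from the 20 control mice of the other experiments, at 10.98 to 14.4 FPKM. Ppp1r3d had 4.53, 6.30, 4.70 and 4.45 FPKM in Cre mice, against 2.94, 3.29, 2.89 and 2.74 FPKM in TdTomato mice, a change of 0.76 ± 0.11 (limma adjusted p = 7.94e-04). Here too the TdTomato mice lay outside the other controls, below them. The overlapping gene Fam217b changed by -0.13 ± 0.05 and was not called. The other experiments used other strains and other viruses or receptors, so that the source of the distance between control groups cannot be told apart.

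Ppp1r3g had 14.1, 14.2, 13.5 and 13.1 FPKM in IP of Cre mice, against 9.31, 11.5, 7.62 and 8.24 FPKM in TdTomato mice, a change of 0.63 ± 0.11 (limma adjusted p = 0.00179). The groups did not overlap, and the Cre mice were close to each other. Gys1 averaged 11.8 ± 0.938 FPKM in Cre mice and 10.2 ± 0.376 FPKM in TdTomato mice (0.24 ± 0.06); the overlapping Ruvbl2 changed by -0.23 ± 0.05. With the spread taken from all 48 IP libraries Gys1 was not called (0.24, limma adjusted p = 0.296). Pygm averaged 37.5 ± 3.46 FPKM in Cre mice and 50.2 ± 6.43 FPKM in TdTomato mice, a change of -0.38 ± 0.09. Ppp1r3c (0.08 ± 0.07), Ugp2 (0.11 ± 0.06) and Pygb (-0.10 ± 0.05) were not called, although without Cre replicate 1, the lowest Cre mouse, Ppp1r3c was (0.16, limma adjusted p = 0.0267).

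In Kcnj10 input 0 of 8 members were called by limma, where 0.346% of all genes were. At an unadjusted p under 0.05 there were 3 of 8 members and 9.35% of all genes, and with voom on recovered reads 0 of 8 and 0.996%. Ppp1r3g averaged 4.07 ± 0.842 FPKM in Cre mice and 2.42 ± 0.530 FPKM in TdTomato mice, a change of 0.75 ± 0.19 (limma adjusted p = 0.147), beside 0.63 in IP; it was called with the spread of all 48 input libraries (0.76, limma adjusted p = 0.01). Without Cre replicate 1 Ppp1r3c was called in input (0.38, limma adjusted p = 0.0394). Gbe1 averaged 8.52 ± 1.11 FPKM in Cre mice and 10.1 ± 0.625 FPKM in TdTomato mice (-0.22 ± 0.10). Its change in IP minus that in input was -0.58 ± 0.10 (limma adjusted p = 0.014), the only such difference among the 8, where 2.35% of all genes were called. With voom Gys1 (0.42, limma adjusted p = 0.0388) and Ppp1r3d (0.65, limma adjusted p = 0.0399) were called too, and without the mouse block Gys1 was (limma adjusted p = 0.0426).

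All 8 oligodendrocyte markers fell in Kcnj10 IP (840 to 1023 FPKM in Cre mice, 1174 to 1502 FPKM in TdTomato mice), and 9 of 10 medium spiny neuron markers rose (1853 to 1915 FPKM in Cre mice, 1513 to 1600 FPKM in TdTomato mice). Sums of the striatal interneuron markers were 1186 to 1320 FPKM in Cre mice against 1397 to 1490 FPKM in TdTomato mice. Of 15 astrocyte markers 3 rose and 4 fell, with sums of 6143 to 6564 FPKM in Cre mice and 5966 to 6556 FPKM in TdTomato mice. None of these markers was at 0, and their part in the result was not tested. Among the other glycogen genes 5 rose and 4 fell, of 24 tested. Pygl, the liver phosphorylase (0.47 ± 0.09), and Epm2a, the glycogen phosphatase laforin (0.26 ± 0.05), rose, and Pgm1 (-0.36 ± 0.07) fell.

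In mice labelled Itpr2-/- no member differed by the test from Itpr2+/+ littermates. With limma 0 of 8 members were called in IP and 0 of 8 in input, where 0% and 0.00709% of all genes were called. At an unadjusted p under 0.05 there were 0 of 8 as well in both fractions, where 5.79% of all genes in IP and 9.04% in input were under it. With voom 0 of 8 members and 0% of all genes were called in either fraction. The largest difference in IP was that of Ppp1r3g, with 18.40, 15.99, 13.35 and 15.85 FPKM in mice labelled Itpr2-/-, against 17.06, 14.15, 14.34 and 12.04 FPKM in littermates (0.15 ± 0.12). The groups overlapped. In input no change was farther from 0 than that of Gys1 (0.07 ± 0.09). Of 30 other glycogen genes 24 were tested in IP and 0 were called, and 0 of 15 astrocyte markers were.

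CNO in rM3Ds mice raised all 3 targeting subunits in IP. Ppp1r3g had the largest change, then Ppp1r3c and Ppp1r3d, and among the enzymes Ugp2 alone was called, lower. In all, 4 of 8 members were called, where 4.58% of all genes were called in IP and 3.32% were higher.

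Ppp1r3g had 47.4, 48.7, 50.2 and 58.6 FPKM in IP of CNO mice, against 11.96, 10.69, 13.42 and 19.01 FPKM in vehicle mice, a change of 1.93 ± 0.16 (limma adjusted p = 8.3e-05). Ppp1r3c had 238.7, 255.4, 216.9 and 239.5 FPKM in CNO mice, against 98.8, 116.5, 117.3 and 100.8 FPKM in vehicle mice, a change of 1.15 ± 0.08 (limma adjusted p = 3.46e-05). Each CNO mouse lay well above each vehicle mouse for both. Ppp1r3d had 6.52, 6.36, 7.51 and 7.57 FPKM in CNO mice, against 4.34, 4.80, 4.97 and 5.53 FPKM in vehicle mice, a change of 0.51 ± 0.09 (limma adjusted p = 0.00918). These groups were apart too, by a smaller gap, and the overlapping Fam217b changed by -0.06 ± 0.09.

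Ugp2 averaged 79.3 ± 4.92 FPKM in IP of CNO mice and 98.1 ± 5.15 FPKM in vehicle mice, a change of -0.30 ± 0.07 (limma adjusted p = 0.0379). Leaving out any mouse other than replicate 1 of either group ended this call, with limma adjusted p of 0.0654 to 0.124, as did a replicate block (0.0887) and testing without the filter on low values (0.0577). The other 4 enzymes changed by between -0.16 (Gys1) and -0.03 (Pygb and Gbe1) and were not called. In input 2 of 8 members were called, where 0.591% of all genes were called and 0.57% were higher. Ppp1r3g averaged 11.7 ± 1.76 FPKM in CNO mice and 3.54 ± 0.433 FPKM in vehicle mice, a change of 1.69 ± 0.12 (limma adjusted p = 1.56e-04). Ppp1r3c averaged 68.5 ± 3.15 FPKM in CNO mice and 33.6 ± 3.41 FPKM in vehicle mice, a change of 1.02 ± 0.07 (limma adjusted p = 1.63e-04). With limma no member's effect differed between IP and input, where 2.19% of all genes were called; 1 of 8 had an unadjusted p under 0.05, beside 12% of all genes, and voom called 0, beside 3.22%.

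Of the 15 astrocyte markers 1 fell in rM3Ds IP (Sox9, a transcription factor, at -0.86 ± 0.09) and 0 rose, with sums of 5915 to 6447 FPKM in CNO mice and 6290 to 7181 FPKM in vehicle mice. Of 24 other glycogen genes tested 1 was called. It was Hk2 (0.87 ± 0.18, limma adjusted p = 0.0247), named here although its level is under the 2 FPKM set for naming.

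**Figure D2:**
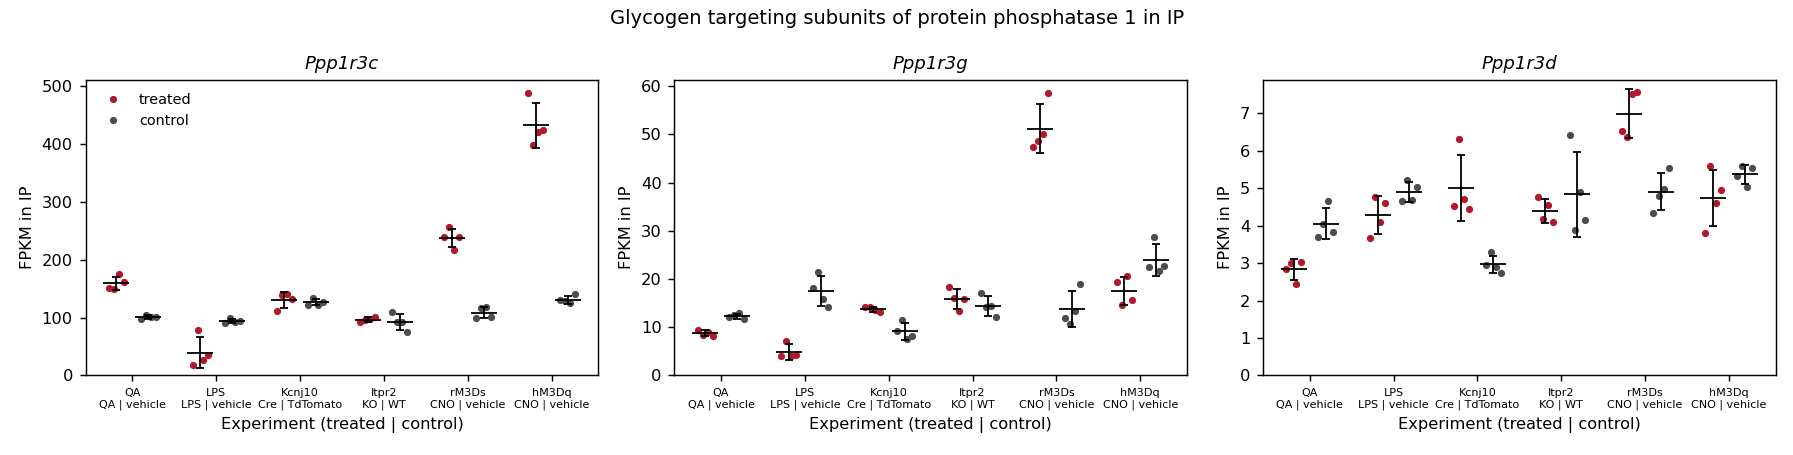
FPKM in IP (y, from 0) of Ppp1r3c, Ppp1r3g and Ppp1r3d in the 6 experiments (x), treated mice in red left of control mice in grey, 4 points per group, with bars for mean ± SD. Ppp1r3c is high with CNO under both receptors, at 217 to 255 FPKM with rM3Ds and 397 to 487 FPKM with hM3Dq, whereas Ppp1r3g is high with rM3Ds at 47.4 to 58.6 FPKM and lies below its vehicle mice with hM3Dq.

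With CNO in hM3Dq mice Ppp1r3c had its largest change of the 6 experiments, and most other members fell in IP. Ppp1r3c rose, and Ugp2, Pygb, Gys1, Pygm and Ppp1r3g fell. These were 6 of 8 members, where 45.4% of all genes were called in IP and 21.1% were lower.

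Ppp1r3c had 486.6, 396.9, 419.7 and 423.9 FPKM in IP of CNO mice, against 129.7, 127.9, 124.5 and 139.8 FPKM in vehicle mice, a change of 1.76 ± 0.08 (limma adjusted p = 2.15e-07). The lowest CNO mouse was far above the highest vehicle mouse. Ppp1r3g had 19.4, 14.6, 20.6 and 15.6 FPKM in CNO mice, against 22.5, 28.8, 21.7 and 22.6 FPKM in vehicle mice, a change of -0.41 ± 0.13 (limma adjusted p = 0.024). The groups lay close but did not overlap, and the call was lost without vehicle replicate 2, CNO replicate 2 or CNO replicate 4 (limma adjusted p 0.0558 to 0.0683), and with a replicate block (limma adjusted p = 0.0505). Ppp1r3d (-0.15 ± 0.11) was not called, except without CNO replicate 2 (-0.25, limma adjusted p = 0.0464). The overlapping Fam217b fell (-0.51 ± 0.10, limma adjusted p = 0.00261).

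Ugp2 had 66.4, 53.1, 47.6 and 52.0 FPKM in IP of CNO mice, against 90.6, 102.4, 103.1 and 108.4 FPKM in vehicle mice, a change of -0.85 ± 0.11 (limma adjusted p = 1.88e-04). Gys1 had 10.8, 10.4, 9.11 and 10.4 FPKM in CNO mice, against 16.9, 16.1, 14.5 and 14.9 FPKM in vehicle mice, a change of -0.57 ± 0.08 (limma adjusted p = 2.93e-04). Both genes of synthesis lay lower in each CNO mouse than in any vehicle mouse, and the Gys1 levels of the vehicle mice were above those of all other control mice. The overlapping Ruvbl2 changed by 0.21 ± 0.08 and was not called. Pygb averaged 155 ± 20.9 FPKM in CNO mice and 248.8 ± 9.94 FPKM in vehicle mice, a change of -0.65 ± 0.10. Pygm averaged 30.9 ± 7.01 FPKM in CNO mice and 44.4 ± 4.63 FPKM in vehicle mice, a change of -0.51 ± 0.15, and was not called without vehicle replicate 4 (limma adjusted p = 0.0563). Gbe1 was near its control level (-0.07 ± 0.08).

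In hM3Dq input 2 of 8 members were called, where 3.72% of all genes were. Ppp1r3c averaged 87.0 ± 13.1 FPKM in CNO mice and 28.5 ± 1.63 FPKM in vehicle mice, a change of 1.59 ± 0.10 (limma adjusted p = 3.05e-05). Pygb averaged 33.8 ± 2.19 FPKM in CNO mice and 42.4 ± 1.82 FPKM in vehicle mice, a change of -0.33 ± 0.05 (limma adjusted p = 0.00694). Ugp2 (-0.27 ± 0.07, limma adjusted p = 0.0743) was not called, but it was with voom (limma adjusted p = 0.0319) and with the spread of all 48 input libraries (limma adjusted p = 9.97e-04). The fall was larger in IP than in input for 3 of 8 members, where 21.3% of all genes were called. The difference was -0.62 ± 0.11 for Ugp2, -0.46 ± 0.13 for Gys1 (limma adjusted p = 0.0271) and -0.34 ± 0.10 for Pygb (limma adjusted p = 0.0344). Leaving out vehicle replicate 1 or 2 or CNO replicate 3 or 4 ended the call of Gys1 (limma adjusted p 0.0644 to 0.108), and leaving out any mouse other than CNO replicate 1 ended that of Pygb (limma adjusted p 0.0625 to 0.116), as did testing without the filter (limma adjusted p = 0.0578). With voom the difference was called for Pygm (-0.35, limma adjusted p = 0.0457). It was also called for Pygm (-0.49) and Ppp1r3g (-0.41) without CNO replicate 1, and for Ppp1r3d (-0.49) without vehicle replicate 3. For Fam217b, which overlaps Ppp1r3d, the difference was -0.53 ± 0.09 with all mice (limma adjusted p = 0.00283).

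Astrocyte markers also moved in hM3Dq IP: 9 of 15 fell and 1, Gfap, rose, with sums of 6354 to 8152 FPKM in CNO mice against 8981 to 9540 FPKM in vehicle mice. The sums of these vehicle mice lay above those of all other control mice in IP, at 5370 to 7381 FPKM. In input the sums were 1011 to 1099 FPKM in CNO mice and 1157 to 1175 FPKM in vehicle mice. Of 6 ependymal markers 5 fell in IP (46.2 to 83.6 FPKM in CNO mice, 115 to 164 FPKM in vehicle mice). Striatal interneuron markers summed to 1393 to 1468 FPKM in IP of CNO mice against 1634 to 1666 FPKM in vehicle mice. Oligodendrocyte precursor markers summed to 53.0 to 55.0 FPKM in CNO mice against 74.8 to 92.2 FPKM in vehicle mice. No marker of these lists was at 0, and their part in the changes of the glycogen genes was not tested. Among the other glycogen genes 5 rose and 7 fell, of 24 tested. Hk2 averaged 9.28 ± 2.92 FPKM in CNO mice and 0.698 ± 0.216 FPKM in vehicle mice (3.58 ± 0.25), and Pgm1 23.3 ± 1.91 FPKM in CNO mice and 8.48 ± 1.26 FPKM in vehicle mice (1.49 ± 0.11). The related Pgm2 averaged 52.9 ± 3.53 FPKM in CNO mice and 87.8 ± 3.86 FPKM in vehicle mice (-0.69 ± 0.06).

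**Figure D3:**
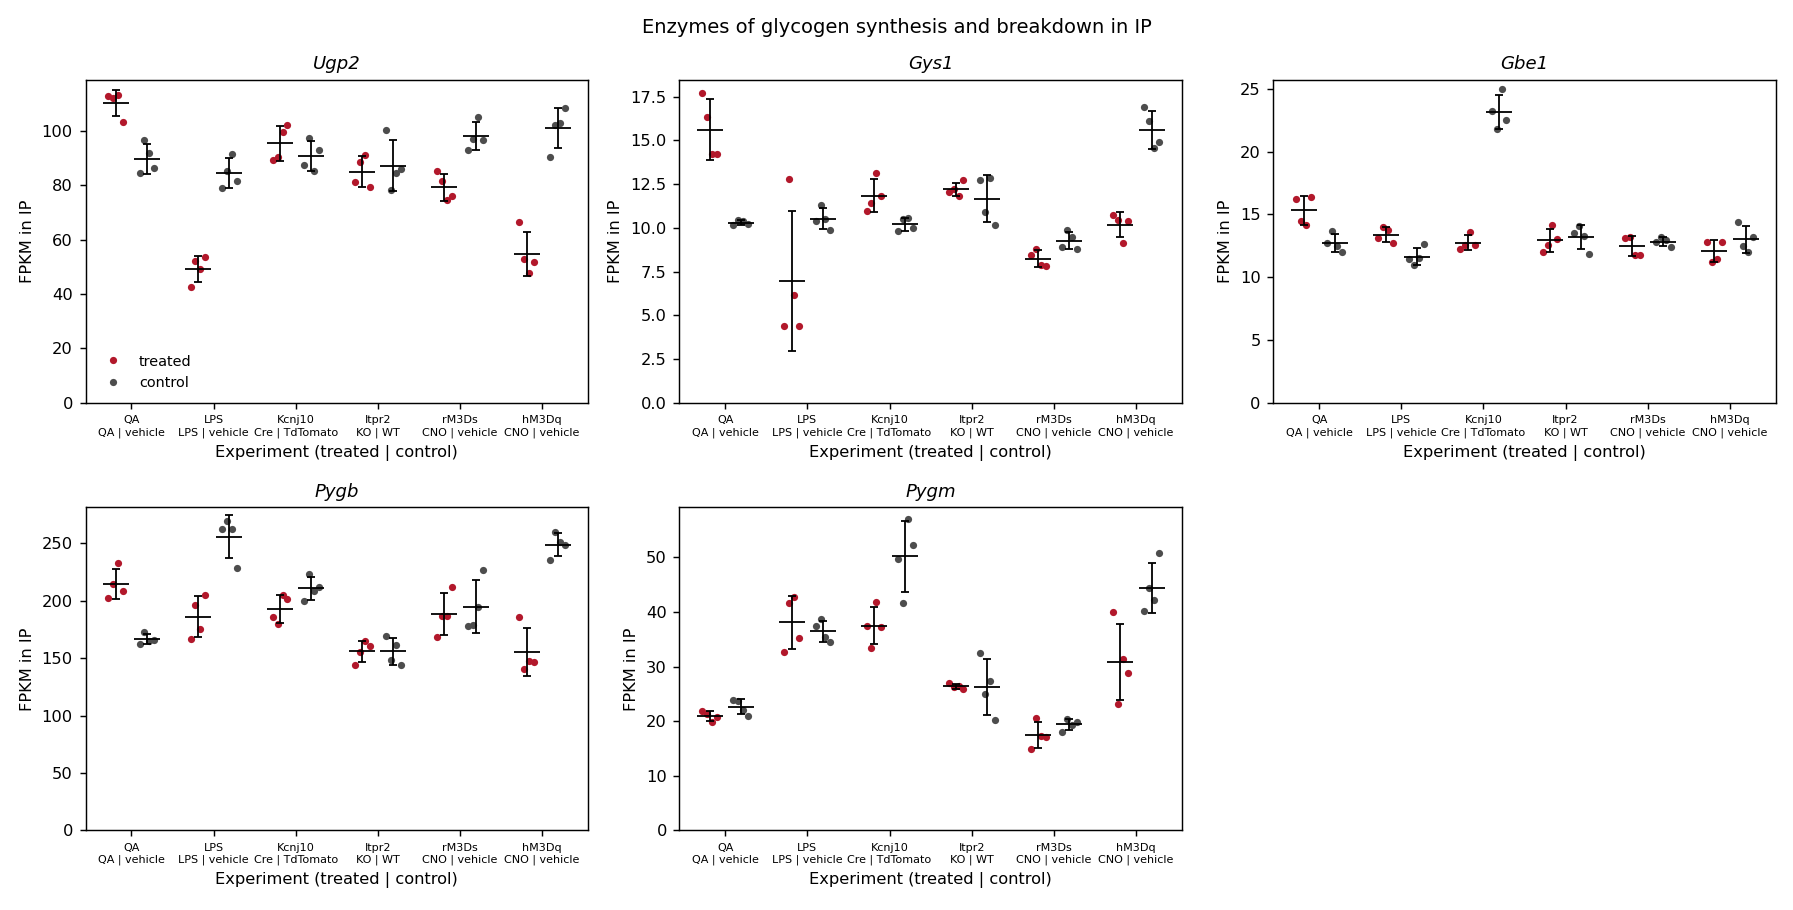
FPKM in IP (y, from 0) of Ugp2, Gys1, Gbe1, Pygb and Pygm in the 6 experiments (x), treated mice in red left of control mice in grey, with bars for mean ± SD of 4 mice. LPS replicate 2 stands apart for Gys1 at 12.8 FPKM, the TdTomato mice are high for Gbe1 at 21.8 to 25.0 FPKM, and Ugp2, Gys1 and Pygb lie below their vehicle mice with CNO in hM3Dq mice.

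The CNO effect was then compared between both receptors in IP, each against its own vehicle mice. It differed for 6 of 8 members, where 27.7% of all genes were called. The difference, rM3Ds minus hM3Dq, was 2.33 ± 0.22 for Ppp1r3g (limma adjusted p = 1.1e-06) and -0.63 ± 0.12 for Ppp1r3c (limma adjusted p = 9.5e-04). Ppp1r3c rose under both receptors and more under hM3Dq. Ppp1r3g rose under rM3Ds and was called lower under hM3Dq. That lower call was lost without vehicle replicate 2, CNO replicate 2 or CNO replicate 4, and with a replicate block (limma adjusted p = 0.0505). The hM3Dq vehicle mice (21.7 to 28.8 FPKM) also lay above all other controls (7.62 to 21.5), whose range held the hM3Dq CNO mice (14.6 to 20.6). Astrocyte marker sums in IP of the hM3Dq vehicle mice were above those of all other controls as well. The difference between receptors was 0.65 ± 0.14 for Ppp1r3d, 0.61 ± 0.14 for Pygb, 0.55 ± 0.14 for Ugp2 and 0.41 ± 0.10 for Gys1. It was 0.44 ± 0.14 for Fam217b (limma adjusted p = 0.0259), whose reads may not be told apart from those of Ppp1r3d. Gbe1 (0.03 ± 0.10) and Pygm (0.35 ± 0.19, limma adjusted p = 0.193) were not called, and Pygm was without hM3Dq CNO replicate 1 (0.50, limma adjusted p = 0.0251). The receptors were tested in separate experiments, the rM3Ds mice were 2 females and 2 males per group and the hM3Dq mice all males, and the time after CNO is known for rM3Ds alone.

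The ratio of Ppp1r3c to Ppp1r3g FPKM within a library shows this unequal change, and was chosen after the values were seen, so it is given with no test. It was 25.0, 27.1, 20.4 and 27.2 in IP of hM3Dq CNO mice, against 5.77, 4.44, 5.74 and 6.19 in their vehicle mice. In rM3Ds it was 5.04, 5.24, 4.32 and 4.09 in CNO mice, against 8.26, 10.9, 8.74 and 5.30 in vehicle mice. In the QA experiment it was 16.08, 17.6, 19.2 and 19.8 in QA mice, against 8.01, 8.32, 7.83 and 8.53 in vehicle mice. In the Kcnj10 experiment it was 7.87, 9.73, 10.4 and 10.1 in Cre mice, against 13.15, 11.5, 16.07 and 15.5 in TdTomato mice. Against its own controls the ratio was thus higher with CNO in hM3Dq mice and in QA mice, and lower with CNO in rM3Ds mice and with Cre, each without overlap. The groups overlapped in the LPS and Itpr2 experiments. Between experiments the control groups differ, and the highest TdTomato mouse, at 16.07, was just below the lowest QA mouse, at 16.08.

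**Figure D4:**
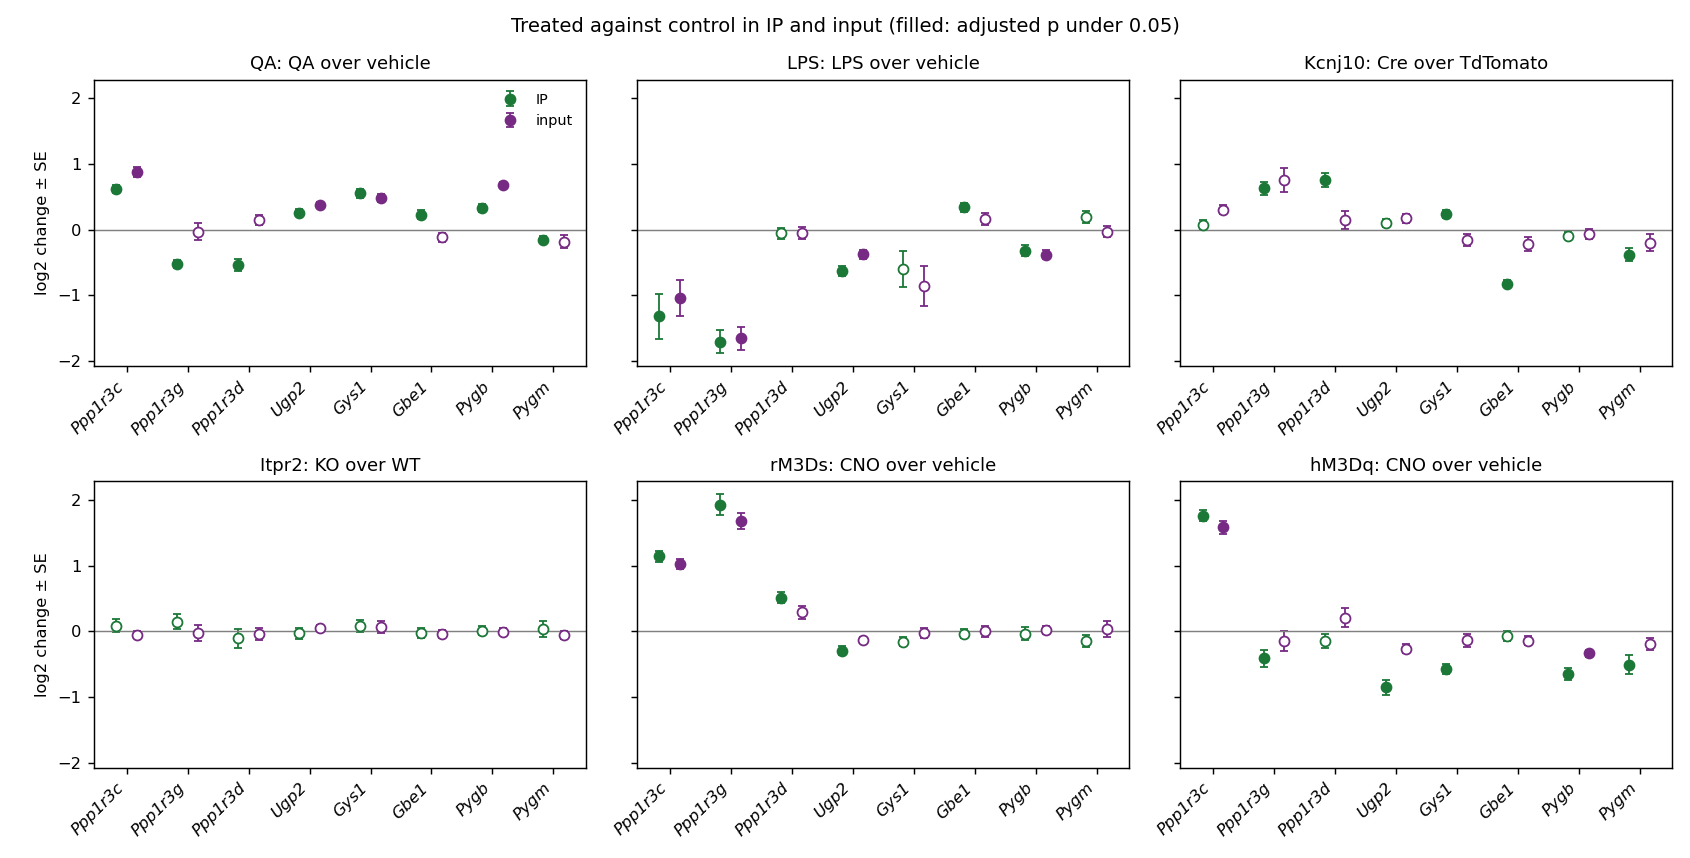
Log2 change ± SE (y) of the 8 glycogen genes (x) in the 6 experiments, treated over control, in IP (green, left) and input (purple, right); filled points have a limma adjusted p under 0.05. Ppp1r3c and Ppp1r3g span the widest range, from -1.71 to 1.93 in IP, and all points of the Itpr2 experiment are open and near 0.

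Across the experiments Ppp1r3g was called in IP in 5 of 6, Ppp1r3c and Ugp2 in 4 and each other member in 3. Of all genes 74% were called in IP with QA, 36.9% with LPS and 29.3% with Cre. The shares were 0% in the Itpr2 experiment, 4.58% in rM3Ds and 45.4% in hM3Dq mice. Some of the counted calls were lost under alternatives, as given above. The genes with changes most like those of Ppp1r3g were sought among 11453 genes tested in all 6 IP comparisons with at least 2 FPKM, by the root mean square difference of the 6 log2 changes. These were Fam13c (0.36), Sox21 (0.50), Map3k19 (0.55), Dhrs3 (0.55) and Gcnt4 (0.61). Fam13c changed by -1.98 with LPS, 1.66 with CNO in rM3Ds mice and -0.62 with CNO in hM3Dq mice, and by 0.14 with QA, where Ppp1r3g fell.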

How the data were processed

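The deposited values are FPKM per gene, made by the authors; the submitters' processing notes name STAR, HTSeq and mm10, without versions. Per the labels, libraries came from a stranded kit with ribosomal RNA removal, while the molecule label reads polyA RNA. Whole reads per gene were recovered from the FPKM steps (100% of values whole at a tolerance of 0.001 reads) and gave depth and TMM factors. After TMM scaling of FPKM and addition of 0.1, limma 3.58.1 (limma-trend, R 4.3.3) was fitted to log2 values of all genes that reached 0.5 FPKM in 4 or more libraries of a comparison; p was Benjamini-Hochberg adjusted over them. IP against input used the mouse as a block. The fits were checked on simulated data. Tables and plots used Python 3.11.15, numpy 2.4.6, pandas 2.3.3 and matplotlib 3.10.9. Mouse sex was read from Xist and Y-linked genes. Annotation and promoters are RefSeq, GRCm38.p6.

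The members and gene lists were chosen with earlier results of these data known. All 8 members are named; of the other glycogen genes, the 3 largest called changes per IP comparison with a mean of at least 2 FPKM are named, and the 5 genes most like the member called most often. Alternatives were RLE or deposited scaling, no filter, pseudocounts of 1 and 0.01, voom on recovered reads, a replicate block, no mouse block, sex as a covariate, the spread of all 48 libraries of a fraction, each experiment's controls alone, and leaving out each replicate.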

Additional observations from a re-analysis of the deposited data

Results flagged for a closer look

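In 13 of 192 groups of 4 mice the highest or lowest library stood apart from the other 3 for 1 of the 8 glycogen genes, by the gap to its nearest neighbour over the range of the group. Chance gives about 1 in 20 groups. LPS replicate 2 was flagged 3 times, always as the highest LPS mouse. It had 7.20 FPKM of Ppp1r3g in IP, 1.64 FPKM of Ppp1r3g in input and 5.30 FPKM of Gys1 in input.

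The other libraries that stood apart in IP were the highest of their group in 3 cases: Ppp1r3g in hM3Dq vehicle replicate 2 (28.8 FPKM), Ppp1r3d in Kcnj10 Cre replicate 2 (6.30 FPKM) and Pygb in hM3Dq CNO replicate 1 (186 FPKM). Ugp2 in QA replicate 4 (103 FPKM) was the lowest of its group. In input the highest were Gys1 in hM3Dq CNO replicate 4 (4.94 FPKM) and Gbe1 in hM3Dq vehicle replicate 1 (8.66 FPKM). The lowest in input were Ppp1r3c in QA vehicle replicate 1 (30.3 FPKM) and in Kcnj10 Cre replicate 1 (34.4 FPKM), Ppp1r3d in LPS replicate 1 (3.23 FPKM) and Gbe1 in hM3Dq CNO replicate 3 (6.72 FPKM).

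The treatment effect differed between IP and input, by a limma interaction test, in 10 cases. The test called 46.9% of all genes for QA, 8.43% for LPS, 2.35% for Kcnj10 and 21.3% for hM3Dq. The call of Ugp2 with LPS was lost on leaving out any mouse other than LPS replicate 2. That of Pygb in hM3Dq mice was lost on leaving out any mouse other than CNO replicate 1. For QA the log2 effect in IP minus that in input was 0.40 for Gbe1, -0.63 for Ppp1r3d, -0.43 for Ppp1r3g, -0.30 for Pygb and -0.20 for Ppp1r3c. It was -0.27 for Ugp2 with LPS and -0.58 for Gbe1 with Cre in the Kcnj10 experiment. With CNO in hM3Dq mice it was -0.62 for Ugp2, -0.46 for Gys1 and -0.34 for Pygb. The CNO effect in IP differed between the receptors for 6 genes, where 27.7% of all genes were called. The difference, rM3Ds minus hM3Dq, was 2.33 for Ppp1r3g, 0.65 for Ppp1r3d, 0.61 for Pygb, 0.55 for Ugp2, 0.41 for Gys1 and -0.63 for Ppp1r3c.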

How the results depend on the processing

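Of 2608 values of the 8 genes under an alternative, 2523 kept their side of the threshold, 57 lost it, 28 gained it and 0 called values reversed; 68 values that were not called changed sign. The number of members called moved by over 1.5 times in these cases, and the cause was not tested. Leaving out 1 replicate gave 3 to 6 members in LPS IP (5 with all mice), 0 to 1 in Kcnj10 input (0), 0 to 2 for the LPS effect in IP against input (1) and 1 to 5 for the hM3Dq effect in IP against input (3). Taking the spread from all 48 libraries gave 1 member in Kcnj10 input. For the LPS effect in IP against input the deposited scaling gave 2 members and a pseudocount of 1 gave 2, and for the Kcnj10 effect in IP against input voom gave 3 (1 in the reported fit). The replicate numbers of the labels did not pair the mice: same-numbered mice correlated between -0.163 and 0.532, and in no comparison were all 4 correlations over 0.1, although 3 of 4 were in rM3Ds IP and in rM3Ds input, where 2 and 3 of 4 treated mice correlated best with their own number. With that replicate block Pygb in LPS IP (-0.32, limma adjusted p = 0.0557), Ppp1r3g in hM3Dq IP (-0.41, limma adjusted p = 0.0505) and Ugp2 in rM3Ds IP (-0.30, limma adjusted p = 0.0887) were not called, and Gys1 in LPS input was (-0.86, limma adjusted p = 0.0482). Without the mouse block Ppp1r3c was not called for the QA effect in IP against input, and the LPS effect in IP against input had 0 members called and the Kcnj10 effect 2. Deposited scaling put the median of all genes at -0.16 in LPS IP, 0.09 in QA input, -0.15 for the QA effect in IP against input and -0.24 for IP against input. It also changed the genes called higher and lower to 1833 and 4022 in LPS IP (2602 and 2430 with TMM), 1249 and 2700 in Kcnj10 IP (1790 and 2179), 6183 and 4374 in QA input (5155 and 5705) and 4900 and 9051 for IP against input (6684 and 7130). The fewest recovered reads for a member in any library were 55, for Ppp1r3g in LPS input replicate 3, where counting error weighs most; 4 mice per group, with 1 LPS mouse standing apart, limit the other values. A sex covariate could not be fitted in the LPS and hM3Dq experiments. In the QA experiment that fit rested on 1 female QA mouse.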
